A study of Mus musculus with 4 samples.

Results

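Retnla, Chil3, Arg1, Mrc1, Ccl24, Mgl2, Clec10a and Pparg are genes that mark alternatively activated macrophages, and they are 8 of the 32285 genes in the deposited matrix. They were chosen by name, with their levels in these libraries and the number of cells holding their UMIs already known. Differences between libraries are therefore given as a description, without a test. Levels were measured in macrophages, monocytes, dendritic cells and neutrophils of tumours, untreated or treated with agonists of STING, of the lymphotoxin β receptor (LTβR) or of both. The study describes STING as a sensor of danger signals inside cells and LTβR signaling as required for the development of lymphoid organs.

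The libraries held live CD45+ leukocytes sorted from subcutaneous KPC tumours. The KPC line came from a mouse pancreatic cancer that carried, among its alleles, Trp53 LSL.R172H/+ and Pdx1-Cre, so its cells have a mutant Trp53 switched on in the pancreatic lineage, and the tumours grew under the skin rather than in the pancreas. Hosts were wild-type male C57BL/6 mice of 8 to 10 weeks. The untreated library came from tumours without an agonist. The STING agonist library came from tumours injected once with ADU-S100, an analog of the nucleotide cGAMP that activates the cytosolic DNA sensor pathway through STING. The LTβR agonist library came from mice given repeated systemic doses of 4H8, an agonistic antibody to the lymphotoxin β receptor. The combination library came from mice given both agents. There was 1 library per group, made from pooled tumours per the study's methods, so no spread between animals could be measured. Every comparison with untreated used the same untreated library.

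Alternative activation is the state that macrophages enter when IL-4 or IL-13 binds the IL-4 receptor α chain and activates the transcription factor STAT6. It is known from worm infection, allergy and tissue repair, and tumour macrophages often carry parts of it. The state is built from secreted proteins (Retnla, Chil3, Ccl24), an enzyme (Arg1), surface lectins (Mrc1, Mgl2, Clec10a) and a nuclear receptor (Pparg). Several of these genes have other inducers and other cells of origin: Chil3 is also high in monocytes, Mgl2 and Clec10a in dendritic cells, and Pparg in subsets of monocytes and T cells.

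After quality limits the untreated library had 6783 cells, the STING agonist library 3748, the LTβR agonist library 7147 and the combination 5333, with medians of 5750 to 7094 UMIs per cell. Of these 3092, 1493, 2953 and 1880 were macrophage- or monocyte-like cells, with 203 to 640 dendritic-like, 29 to 111 plasmacytoid dendritic-like and 69 to 361 neutrophil-like cells per library. All 16 markers of the macrophage or monocyte list were detected in that class, at summed levels of 15531 to 20528 CPM, which is UMI counts scaled to the total of the class. The T cell list summed to 6.79 to 17.3 CPM there and the neutrophil list to 696 to 988 CPM, and the eosinophil genes Epx and Prg2 were at 0. Pairs of libraries shared 33 to 61 cell barcodes.

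The makeup of the class differed between libraries. A C1q Trem2 macrophage-like cluster held 34.4% of the class in untreated and 33.0% with the STING agonist, but 14.6% with the LTβR agonist and 14.2% in the combination. A cluster led by Ccl8, Pf4, Lyz1 and C4b, for which no fixed subset name was met, held 3.43%, 3.75%, 9.41% and 18.8% in the same order. A cluster led by Ace, Adgre4, Ear2 and Cd36 held 1.81%, 1.74%, 6.13% and 10.5%. These clusters were found without the 8 genes, and a level over the whole class follows both the level in each cluster and the size of the clusters.

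Of the 8 genes, 0 were past 2-fold with the STING agonist in either direction, 4 were past 2-fold higher with the LTβR agonist, and 4 were past 2-fold higher in the combination, with 0 lower in both. Past 2-fold means a log2 ratio of at least 1 in size on the scale of CPM + 10. Among all genes tested, 0.00950% were past 2-fold higher and 0% lower with the STING agonist, 0.224% higher and 0.0654% lower with the LTβR agonist, and 0.453% higher and 0.113% lower in the combination. The medians of the 8 log2 ratios were -0.11, 0.88 and 0.97, beside 0.01, 0.01 and 0.03 over all 10526, 10707 and 10593 genes tested. The genes were picked knowing these ratios, so nothing is read from those counts beyond the values themselves.

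**Figure D1:**
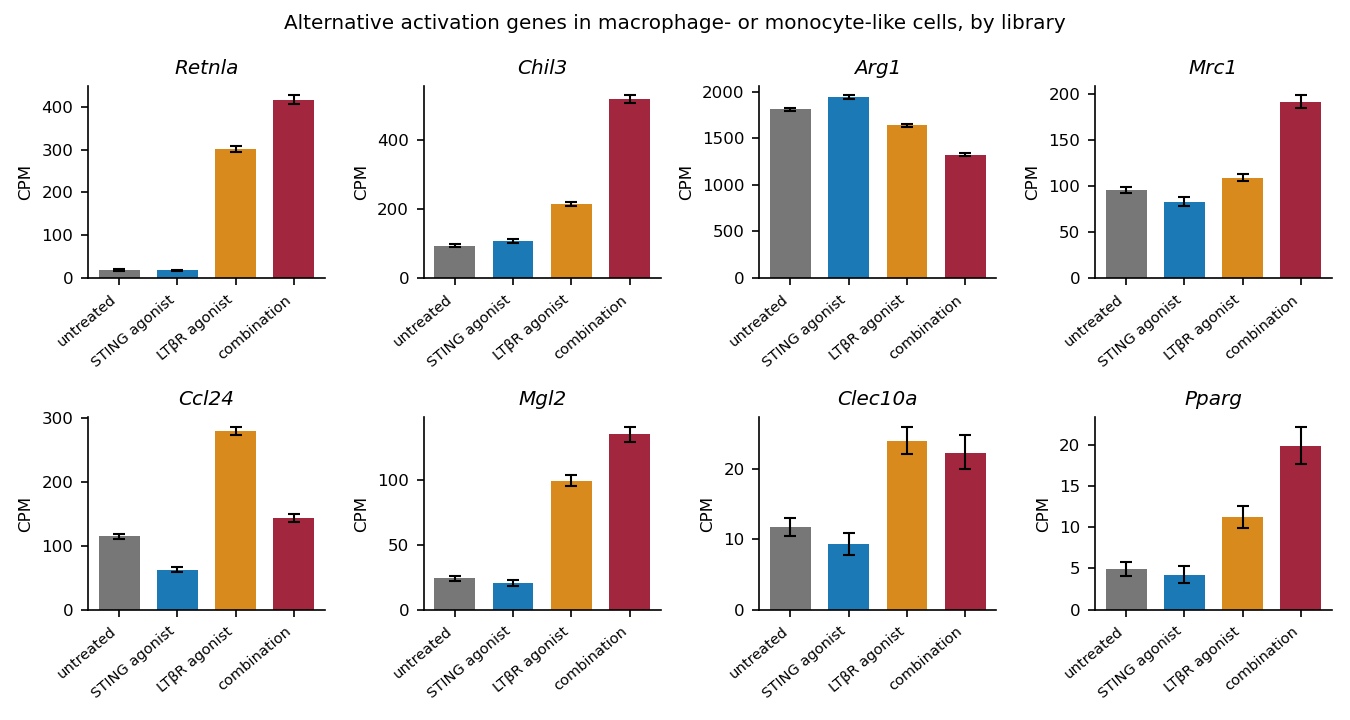
Level of each of the 8 genes in macrophage- or monocyte-like cells, 1 panel per gene and 1 bar per library, in CPM on axes that start at 0 and differ between panels. Lines are exact Poisson 95% intervals, which cover counting error only. Retnla stands at 18.3 and 17.6 CPM in untreated and STING agonist and at 302 and 417 CPM in LTβR agonist and combination, while Arg1 is between 1325 and 1942 CPM in every library.

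Retnla encodes RELMα (also called Fizz1), a small secreted protein of alternatively activated macrophages, and Chil3 encodes the secreted chitinase-like protein Ym1, whose reads may be shared with near-identical family members. Retnla (ENSMUSG00000061100) lies on chr16:48842551-48844461 on the plus strand, and Chil3 (ENSMUSG00000040809) on chr3:106147554-106167564 on the minus strand, both of GRCm38. The bases just upstream of both gene starts are printed because these were the genes with the 2 highest log2 ratios of all genes tested in the combination, seldom in the same cells of the LTβR agonist library and more often so in the combination. The stretches are chr16:48842359-48842550 (plus strand) and chr3:106167565-106167814 (minus strand), from RefSeq on GRCm38.p6, and capitals mark the motif matches.
Retnla: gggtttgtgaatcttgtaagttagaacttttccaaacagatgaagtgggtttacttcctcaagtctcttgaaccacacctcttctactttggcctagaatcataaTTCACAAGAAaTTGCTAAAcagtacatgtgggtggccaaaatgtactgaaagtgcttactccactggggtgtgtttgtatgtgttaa
Chil3: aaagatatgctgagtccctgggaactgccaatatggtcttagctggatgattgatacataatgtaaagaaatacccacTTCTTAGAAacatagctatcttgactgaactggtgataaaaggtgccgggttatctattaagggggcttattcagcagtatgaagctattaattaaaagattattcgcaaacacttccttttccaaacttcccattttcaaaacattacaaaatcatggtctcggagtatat

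In the Retnla stretch a STAT6-type motif, TTCNNNNGAA, matched as TTCACAAGAA 145 bases before the RefSeq start, and a C/EBP-type motif, TTGCNNAA, matched as TTGCTAAA 134 bases before it. The Chil3 stretch held no match of these, and held the general STAT motif TTCNNNGAA as TTCTTAGAA at chr3:106167728-106167736. Both strands were searched, and of 32851 RefSeq windows of 300 bases 6.95% held the STAT6-type motif, 8.30% the general STAT motif and 10.8% the C/EBP-type motif. For the 8 genes, 5 had such a window, with 7 windows in all. In the windows of Mrc1 and Mgl2 these letters were not found, and 1 of the Pparg windows held the C/EBP-type motif as TTGCCAAA and TTTTGCAA, 215 and 16 bases before the start. A match is a run of letters and not a measured binding site.

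Retnla was at 18.3 CPM (95% interval 16.7 to 19.9) in untreated, 17.6 CPM (15.6 to 19.8) with the STING agonist, 302 CPM (295 to 309) with the LTβR agonist and 417 CPM (407 to 427) in the combination. The untreated and STING agonist intervals overlapped, and both LTβR agonist libraries lay far above them. The log2 ratio to untreated was 3.46 (3.35 to 3.58) with the LTβR agonist and 3.92 (3.8 to 4.03) in the combination. Beside the LTβR agonist library alone, the combination was 0.45 higher on the log2 scale.

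Retnla UMIs were held by few cells in every library. A UMI was found in 22 of 3092 untreated cells (0.712%), 12 of 1493 STING agonist cells (0.804%), 210 of 2953 LTβR agonist cells (7.11%) and 171 of 1880 combination cells (9.10%). Thinned to an equal depth these shares were 0.366%, 0.345%, 3.71% and 5.38%. The share was higher in both LTβR agonist libraries at either depth, and yet the 10 cells with most Retnla held 53.5% and 53.1% of its UMIs there, and 97.1% and 99.3% in untreated and STING agonist. The fewest cells that held 50% of the Retnla UMIs were 2, 1, 9 and 10 in that order, from untreated to the combination, and the highest single cell held 183, 157, 659 and 790. Thus the untreated level rested on a handful of cells, and so did most of the LTβR agonist level. At least 10 UMIs of Retnla were found in 4, 4, 68 and 65 cells.

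A low share of Retnla positive cells was found in cells of other lineages too. In T-like cells it was 0.345%, 0%, 2.97% and 3.63% and in NK-like cells 0.606%, 0%, 3.21% and 2.40%, at medians of 4085 to 5509.5 UMIs per cell against 7592.5 to 10337 in the macrophage or monocyte class. Whether these UMIs were background RNA was not tested. Those shares moved with the library in the same way, so a Retnla share near them is not read as a trait of a class. Dendritic-like cells (0.625%, 0.493%, 3.10% and 1.83%) and neutrophil-like cells (0.452%, 0.339%, 1.39% and 1.45%) were at or near that level by share. By UMIs dendritic-like cells stood at 2.03, 0.827, 27.0 and 16.5 CPM, with log2 ratios of 1.62 (1.28 to 1.92) with the LTβR agonist and 1.14 (0.72 to 1.54) in the combination, above T-like cells at 7.37 and 7.77 CPM. Those UMIs were in few cells, with 108 of 124 in 1 cell with the LTβR agonist and 36 of 42 in 1 cell of the combination. In the mixed cells kept out of every class, 816 of a cluster with T cell and macrophage genes and 44 of a cluster led by neutrophil genes, lay 0.37%, 29.9%, 20.6% and 4.96% of all Retnla UMIs.

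The Ccl8 Pf4 cluster was the main source of Retnla, with 67.8% to 76.9% of all its UMIs in each library. There Retnla was at 459 CPM in untreated (6 of 106 cells positive), 579 CPM with the STING agonist (7 of 56), 3520 CPM with the LTβR agonist (89 of 278) and 2202 CPM in the combination (109 of 354). Inside the cluster both LTβR agonist libraries were higher, by 2.91 (2.73 to 3.09) and 2.24 (2.05 to 2.42) on the log2 scale, and the combination was lower than the LTβR agonist alone by a log2 ratio of -0.67 (-0.75 to -0.60). The higher class level of the combination than of the LTβR agonist library thus went with a larger Ccl8 Pf4 cluster, not with a higher level in it. Other clusters were divided. Among 11 clusters the interval of this ratio lay above 0 in 3 and below 0 in 4. Retnla was lower in the combination in the clusters led by Rsad2 (6.72 against 54.9 CPM), Thbs1 (3.49 against 21.6 CPM) and Celf4 (5.85 against 24.2 CPM). The clusters where it was higher are given below, with much of their Retnla in single cells. Without that cluster the class ratio was 1.09 with the LTβR agonist and 2.60 in the combination, in place of 3.46 and 3.92. The C1q Trem2-like cluster had 11.4, 0.152, 15.8 and 160 CPM, and 1 cell held 341 of its 525 Retnla UMIs in the combination. A second cluster led by Ccl8 and Pf4, with Mmp13 and a median of 1531.5 UMIs per cell, was at 61.8 CPM with the LTβR agonist and 967 CPM in the combination, a log2 ratio of 3.77 (2.97 to 4.59), with 8 of 94 cells positive in the combination and 120 of 195 UMIs in 1 of them. A cluster led by Psd3 and Lrmda was at 45.1 and 702 CPM (3.69, 2.95 to 4.45), with 240 of 251 UMIs in 1 cell.

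**Figure D2:**
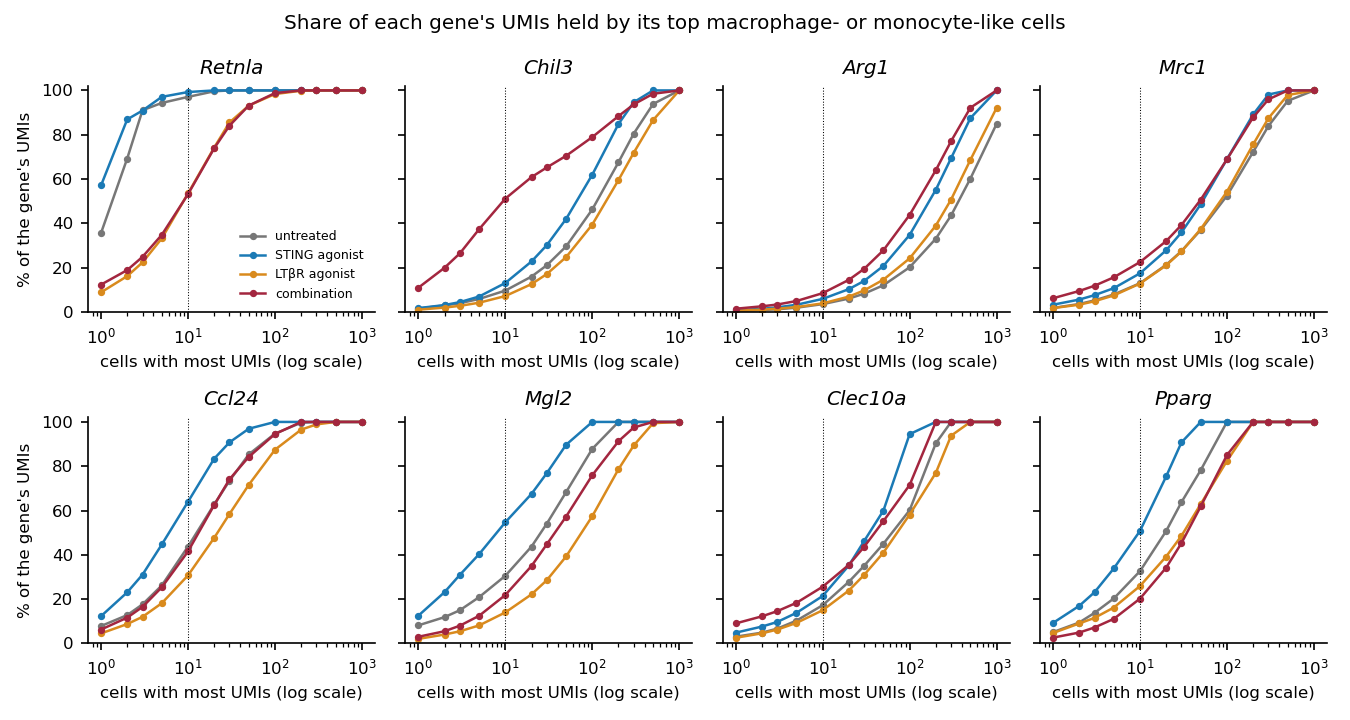
Share of the UMIs of each gene (y axis, percent) held by the cells with most of them (x axis, number of cells on a log scale) in macrophage- or monocyte-like cells, 1 line per library. The dotted line stands at 10 cells, where Retnla lines lie between 53.1% and 99.3%, the Chil3 line of the combination lies at 51.1% and its other lines between 7.15% and 13.04%, and Arg1 lines lie between 3.50% and 8.45%.

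Chil3 was at 93.9 CPM (90.3 to 97.5) in untreated, 106 CPM (101 to 111) with the STING agonist, 215 CPM (209 to 221) with the LTβR agonist and 517 CPM (506 to 529) in the combination. Each library lay above the one before it. The log2 ratios with the STING agonist, the LTβR agonist and both were 0.16 (0.05 to 0.28), 1.11 (1.03 to 1.2) and 2.34 (2.26 to 2.43), and the combination was 1.23 above the LTβR agonist alone.

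The share of cells with Chil3 did not follow its level. It was 21.4% (19.98 to 22.9), 26.0% (23.8 to 28.3), 33.0% (31.3 to 34.7) and 33.0% (30.9 to 35.2), and after thinning 7.02%, 8.21%, 13.2% and 13.4%. The LTβR agonist and combination libraries were alike in that share although their levels differed by 1.23 on the log2 scale. The 10 top cells held 9.62%, 13.04%, 7.15% and 51.1% of the Chil3 UMIs, and the fewest cells that held 50% of them were 115, 67, 146 and 10. So the combination had a few cells of very high Chil3 (up to 869 UMIs in 1 cell, against 28 to 53 elsewhere). Without the 10 top cells of each library its log2 ratio to untreated was 1.48 in place of 2.34, still past 2-fold. The ratio to the LTβR agonist was not recomputed without those cells, so how much of the 1.23 rests on them is not given. Among 11 clusters the interval of that ratio lay above 0 in 5 and below 0 in 4. The monocyte-like cluster was among the 4, at -0.42 (-0.57 to -0.26). NK-like cells, as background, were positive in 0%, 0%, 0.681% and 2.40%.

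Chil3 came from different clusters in different libraries. In untreated, STING agonist and LTβR agonist the 10 top cells lay in the monocyte-like cluster, in a cluster led by Thbs1 and Timp1 and in a cluster led by the interferon-stimulated genes Rsad2, Ifit2 and Cxcl10, with 1 exception in the C1q Trem2-like cluster of untreated. The monocyte-like cluster, led by Hp, Lyz2 and Vcan among others, held Chil3 at 291, 356, 642 and 479 CPM with 44.9%, 53.7%, 59.6% and 59.8% of its cells positive, so Chil3 was common and moderate there in each library. In the combination 7 of the 10 top cells were in the Ccl8 Pf4 cluster. That cluster stood at 31.0, 19.3 and 30.9 CPM in the first 3 libraries and at 1585 CPM in the combination, a log2 ratio of 5.28 (4.79 to 5.77) to untreated and 5.29 (4.96 to 5.61) to the LTβR agonist, with 104 of 354 cells positive against 26 of 278. The shallow second cluster led by Ccl8, Pf4 and Mmp13 moved likewise, from 13.7 CPM with the LTβR agonist to 813 CPM in the combination (5.12, 3.96 to 6.12), with 6 of 94 cells positive and 110 of 164 UMIs in 1 of them. A further 2 top cells were in the Psd3 Lrmda cluster, where 11 of 76 cells were positive and the 2 top cells held 736 of 765 UMIs. The C1q Trem2-like cluster rose to 291 CPM from 23.8 CPM, and 1 cell held 718 of its 954 UMIs.

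Retnla and Chil3 were seldom in the same cells of the LTβR agonist library and overlapped more in the combination. Of thinned cells with Retnla, 3 of 105 (2.86%) also had Chil3 with the LTβR agonist, where 13.2% of all thinned cells had it, and 32 of 97 (33.0%) in the combination, where 13.4% had it. The 95% intervals, 0.593% to 8.12% and 23.8% to 43.3%, did not overlap. They count cells of 1 library each and hold no spread between animals. Cells with at least 10 UMIs of both genes numbered 0 in untreated, STING agonist and LTβR agonist and 23 in the combination, of which 18 were in the Ccl8 Pf4 cluster. Cells this high in both genes were thus found in 1 of the 4 libraries. Among the 10 top Chil3 cells of the combination, 9 held Retnla, 10 Arg1, 8 Ccl24 and 8 Mgl2, and 4 were also among the 10 top Retnla cells. Their median depth was 12928.5 UMIs, above the class median of 7592.5, and 0 of them had a Scrublet doublet score of 0.2 or more. Whether some of them are several cells in a droplet was not tested further.

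**Figure D3:**
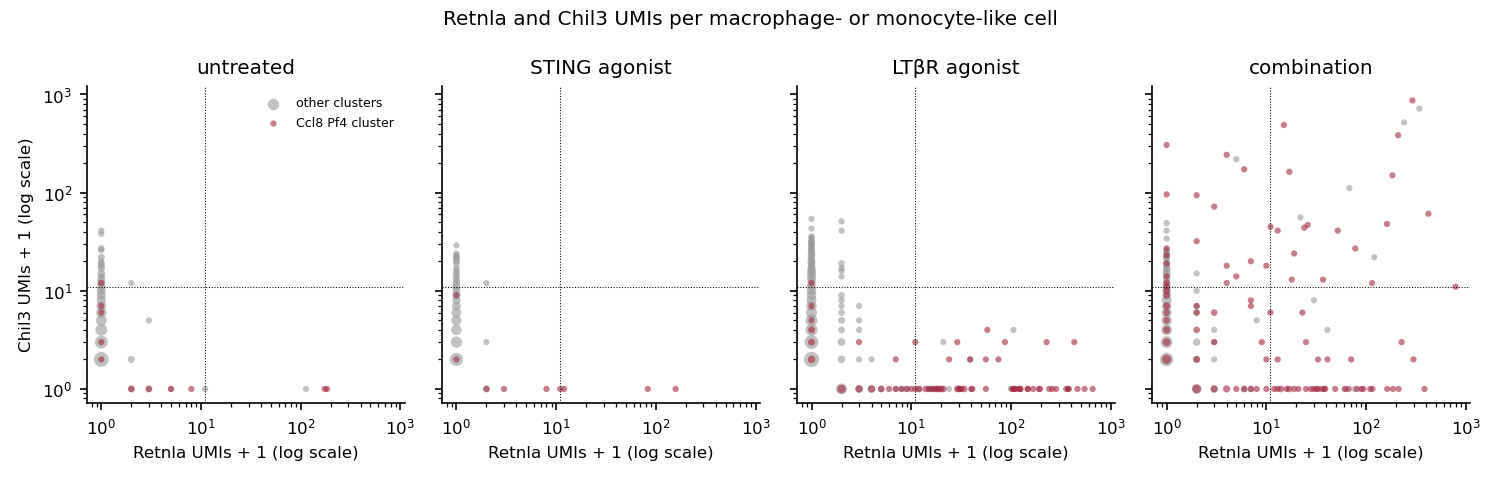
UMIs of Retnla (x axis) and Chil3 (y axis) in each macrophage- or monocyte-like cell with a UMI of either gene, both as UMIs + 1 on log scales, 1 panel per library. Red points are cells of the Ccl8 Pf4 cluster, point size grows with the number of cells at the same place, and dotted lines mark 10 UMIs. The area above 10 UMIs of both holds 0 cells in the first 3 panels and 23 in the combination.

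Ccl24 encodes the chemokine eotaxin-2, which draws eosinophils through CCR3. Its gene (ENSMUSG00000004814) lies on chr5:135569937-135573049 on the minus strand. Ccl24 was at 115 CPM (111 to 119) in untreated, 62.6 CPM (58.7 to 66.6) with the STING agonist, 280 CPM (273 to 287) with the LTβR agonist and 143 CPM (138 to 150) in the combination. It was the lowest with the STING agonist and the highest with the LTβR agonist, with the combination between. On the log2 scale the STING agonist library differed from untreated by -0.78 (-0.91 to -0.66), the LTβR agonist library by 1.22 (1.14 to 1.30) and the combination by 0.30 (0.20 to 0.40). The LTβR agonist value alone was past 2-fold, and the STING agonist value was the second lowest of the 10526 genes tested there. In both settings, without and with the LTβR agonist, the library with the STING agonist was lower, by -0.78 and -0.92. When cells with at least 2 markers of another class were left out, the first of these was -0.13.

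Cells with a Ccl24 UMI made up 6.86%, 5.36%, 12.8% and 10.1% of the class, or 3.03%, 2.48%, 6.12% and 4.60% after thinning, and the 10 top cells held 43.7%, 63.9%, 30.7% and 41.5% of the UMIs. Ccl24 was thus a gene of few, strongly positive cells in every library. The inflammatory macrophage-like cluster, led by Inhba, Spp1 and Il1a, had 149, 62.1, 723 and 350 CPM, and it held 40.6% of all Ccl24 UMIs with the LTβR agonist against 13.2% in untreated. The C1q Trem2-like cluster had 158, 67.3, 305 and 199 CPM. In both clusters the STING agonist library was the lowest and the LTβR agonist library the highest. Other clusters differed from that order. Ccl24 was higher with the STING agonist than in untreated in the cluster led by Hspa1b, at 338 against 82.1 CPM (log2 ratio 1.92, 1.27 to 2.58), and in the cluster led by Rsad2, at 75.0 against 39.9 CPM (0.77, 0.36 to 1.18). The combination was above the LTβR agonist in the clusters led by Hspa1b (0.70) and Celf4 (2.47). Among 11 clusters with at least 20 cells in both libraries, 5 were past 2-fold higher and 0 lower with the LTβR agonist. Dendritic-like and neutrophil-like cells were at 0 to 21.8 CPM.

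Arg1 encodes arginase 1, which turns arginine into ornithine and urea and so removes the substrate of nitric oxide synthase. Its gene (ENSMUSG00000019987) lies on chr10:24915221-24927484 on the minus strand. Arg1 was at 1812 CPM in untreated, 1942 CPM with the STING agonist, 1641 CPM with the LTβR agonist and 1325 CPM in the combination. It was abundant in every library, and its log2 ratios of 0.10, -0.14 and -0.45 (-0.48 to -0.42) were all within 2-fold. Cells with Arg1 made up 70.6%, 66.4%, 59.2% and 51.2%, or 52.4%, 51.2%, 44.8% and 36.0% after thinning, and the 10 top cells held 3.50% to 8.45% of the UMIs. Arg1 thus differed from Retnla in both traits, being widely spread over cells and lowest in the combination.

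Inside clusters Arg1 moved in opposite directions. In the inflammatory macrophage-like cluster it was at 3141, 3162, 3154 and 2565 CPM, and in the C1q Trem2-like cluster at 2342, 2522, 2110 and 1702 CPM, within 2-fold in both. In the cluster led by Rsad2, Ifit2 and Cxcl10, which met the markers of Cxcl9 Cxcl10 monocyte-derived-like cells, it was at 1294, 1326, 1319 and 380 CPM, and it fell in the combination with a log2 ratio of -1.74 (-1.87 to -1.61). Its positive share there was 70.6%, 65.6%, 66.8% and 45.3%. In the Ccl8 Pf4 cluster it was at 1074, 615, 910 and 2789 CPM and rose in the combination, with log2 ratios of 1.37 (1.24 to 1.5) to untreated and 1.60 (1.5 to 1.71) to the LTβR agonist. That cluster held 1.58% of all Arg1 UMIs in untreated and 29.5% in the combination. Arg1 was found in 41 of 105 thinned Retnla positive cells (39.0%) with the LTβR agonist and in 68 of 97 (70.1%) in the combination.

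Neutrophil-like cells had Arg1 at 238, 95.6, 372 and 278 CPM, above the 3.90 to 15.8 CPM of T- and NK-like cells. Only 2.03% to 5.54% of them were positive, close to the 1.97% to 4.68% of T-like cells at more UMIs per cell (medians of 1979 to 2350 in neutrophil-like and 4085 to 4996 in T-like cells). Neutrophil Arg1 was thus confined to a few cells with many UMIs in these 4 libraries, and whether they also hold macrophage RNA was not tested. Chil3 in neutrophil-like cells was at 61.0, 29.0, 275 and 168 CPM with 3.17%, 2.37%, 6.93% and 7.25% positive. Mgl2 was found in 0 of 221, 295, 361 and 69 neutrophil-like cells, which allows a share of cells with a UMI of up to 1.36%, 1.02%, 0.831% and 4.35% (3 counts over the cells). At the low depth of these cells this does not limit the share that express the gene.

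Mrc1 encodes the mannose receptor CD206, which takes up glycoproteins. Its gene (ENSMUSG00000026712) lies on chr2:14229392-14332057 on the plus strand, and exons cover 6.21% of it. Mrc1 was at 95.9 CPM (92.3 to 99.6), 83.2 CPM (78.7 to 87.9), 109 CPM (105 to 114) and 192 CPM (185 to 199) in untreated, STING agonist, LTβR agonist and combination. The combination was highest, with a log2 ratio of 0.93 (0.83 to 1.03) that fell short of 2-fold. The positive share was 20.3%, 21.7%, 18.8% and 22.3% in the 4 libraries. At equal depth it was 6.19%, 5.17%, 6.40% and 10.7%, with the combination above the others.

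In the Ccl8 Pf4 cluster Mrc1 was at 611, 380, 610 and 786 CPM with 61.3%, 75.0%, 65.5% and 66.7% of its cells positive. Inside it the log2 ratio was 0.00 (-0.21 to 0.21) with the LTβR agonist and 0.36 (0.17 to 0.55) in the combination. The Psd3 Lrmda cluster had 202, 395, 253 and 1351 CPM, above the Ccl8 Pf4 cluster with the STING agonist and in the combination. Its log2 ratio of the combination to the LTβR agonist was 2.37 (1.97 to 2.78) over 76 cells. Of its 483 Mrc1 UMIs in the combination, 322 were in 3 cells. The C1q Trem2-like cluster held most Mrc1 UMIs in untreated (50.2%) and with the STING agonist (56.7%), while the Ccl8 Pf4 cluster held 16.1%, 13.1%, 38.3% and 56.7% in the 4 libraries. Without the Ccl8 Pf4 cluster the class ratio of the combination was 0.00 in place of 0.93, so the class difference went with that cluster. In the inflammatory macrophage-like cluster Mrc1 fell, from 63.8 to 12.3 CPM in the combination with a log2 ratio of -1.73 (-2.25 to -1.18). Thinned Retnla positive cells held Mrc1 in 30 of 105 (28.6%) with the LTβR agonist and 34 of 97 (35.1%) in the combination, above the 6.40% and 10.7% of all cells.

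Mgl2 and Clec10a encode neighbouring C-type lectins (CD301b and CD301a) that bind galactose-type sugars. Mgl2 (ENSMUSG00000040950) lies on chr11:70130329-70137550 and Clec10a (ENSMUSG00000000318) on chr11:70156197-70170834, both on the plus strand. They are paralogs, and how reads that match both were counted is not given in the sources used here. In macrophage- or monocyte-like cells Mgl2 was at 24.0 CPM (22.2 to 25.9), 20.5 CPM (18.3 to 22.9), 99.2 CPM (95.3 to 103) and 135 CPM (129 to 141). It was higher in both LTβR agonist libraries, by log2 ratios of 1.68 (1.55 to 1.81) and 2.09 (1.96 to 2.23). The positive share went the same way, at 5.69%, 5.56%, 17.4% and 18.7%, or 1.80%, 1.17%, 5.80% and 6.65% after thinning. NK-like cells were at 0.303% to 0.735%. The 10 top cells held 30.5%, 54.7%, 14.0% and 21.8% of the UMIs, so unlike Retnla the higher Mgl2 level was shared by many cells.

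Mgl2 was higher inside macrophage clusters as well. The C1q Trem2-like cluster had 40.9, 36.2, 171 and 359 CPM with 10.6%, 10.6%, 40.7% and 46.1% of cells positive, and log2 ratios of 1.83 (1.64 to 2.02) with the LTβR agonist and 2.86 (2.68 to 3.05) in the combination. The inflammatory macrophage-like cluster had 10.3 CPM in untreated, 56.2 CPM with the LTβR agonist and 57.8 CPM in the combination. Of 11 clusters 7 were past 2-fold higher with the LTβR agonist and 4 in the combination, with 0 lower in both. For Retnla 7 of 11 were past 2-fold higher with the LTβR agonist and 5 in the combination. With the LTβR agonist its interval included 0 in the second cluster led by Ccl8 and Pf4 (18 against 2 UMIs) and in the cluster led by Celf4 (22 against 0 UMIs). Apart from the Ccl8 Pf4 cluster, those past 2-fold with the LTβR agonist held 0 to 4 Retnla UMIs in untreated.

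In dendritic-like cells Mgl2 was at 233, 168, 330 and 479 CPM with 30%, 24.6%, 36.9% and 46.6% positive. The order was that of the macrophage class, with the STING agonist lowest and the combination highest, and the combination was past 2-fold at 1.01 (0.87 to 1.16). The cluster led by Plet1, Kmo and H2-Oa had 376, 240, 517 and 559 CPM. It met the fixed markers of Cd209a dendritic cells through Kmo and Ffar2, and Cd209a was not among its leading genes. The cDC1-like cluster, led by Clec9a and Xcr1 but also by Cd209a, had 79.4, 28.6, 249 and 672 CPM. Its positive shares were 24.6%, 12.8%, 30.7% and 58.1%. The range of levels was wider there than in the cluster led by Plet1. Dendritic-like cells held 67.7% of all Mgl2 UMIs in untreated and 33.4% in the combination, where the macrophage or monocyte class held 57.0%.

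Clec10a moved less. In the macrophage or monocyte class it was at 11.8, 9.29, 24.1 and 22.3 CPM. The log2 ratios in the LTβR agonist and combination libraries were 0.65 (0.48 to 0.81) and 0.57 (0.38 to 0.76). Both were within 2-fold on the scale of CPM + 10, which shrinks ratios at such levels. With 1 CPM added they were 0.97 and 0.87. Its positive share was 7.50%, 7.23%, 11.4% and 10.5%. Dendritic-like cells had 86.3, 101, 117 and 126 CPM with 27.3%, 30.5%, 31.2% and 30.6% positive. The plasmacytoid dendritic-like cluster was at 194, 317, 176 and 248 CPM with 64.9%, 80.6%, 64.8% and 72.4% positive, the highest cluster in each library except the LTβR agonist one, where the cDC1-like cluster stood at 224 CPM. Dendritic-like cells held 49.9%, 45.3%, 36.9% and 38.4% of all Clec10a UMIs and the macrophage or monocyte class 25.9%, 26.8%, 40.8% and 41.3%, so the macrophage part was larger in both libraries with the LTβR agonist.

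Pparg encodes the nuclear receptor PPARγ, which binds fatty acid ligands and is induced by IL-4. Its gene (ENSMUSG00000000440) lies on chr6:115360951-115490399 on the plus strand, and exons cover 2.28% of it. Pparg was at 4.90 CPM (4.12 to 5.79), 4.17 CPM (3.22 to 5.31), 11.2 CPM (9.96 to 12.6) and 19.9 CPM (17.8 to 22.3), with 2.59%, 2.41%, 5.05% and 7.77% of cells positive. Both LTβR agonist libraries were higher, with log2 ratios of 0.51 (0.34 to 0.68) and 1.01 (0.81 to 1.19). The combination was just past 2-fold. With 1 CPM added in place of 10 the ratios were 1.05 and 1.83.

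Pparg belonged to the Ace Adgre4 cluster, whose leading genes Ace, Ear2, Treml4 and Cd300e are known from non-classical monocytes, a name that was not among the fixed markers. There it was at 199 CPM (150 to 258), 263 CPM (179 to 373), 213 CPM (182 to 247) and 253 CPM (222 to 287) with 29 of 56, 13 of 26, 72 of 181 and 99 of 198 cells positive. The 4 intervals overlapped. That cluster held 56 of 138 Pparg UMIs of the class in untreated, 173 of 278 with the LTβR agonist and 237 of 307 in the combination. With its level alike, the class difference went with the size of the Ace Adgre4 cluster. The mean log2 ratio over 11 clusters was -0.02 with the LTβR agonist and -0.03 in the combination, with 0 clusters past 2-fold in either direction. Most other clusters lay below the 10 CPM added, so their ratios could hardly pass 2-fold and little is read from them. The same cluster was at 0 to 8.61 CPM for Retnla, 0 to 9.84 CPM for Mrc1 and 0 to 3.69 CPM for Mgl2. T-like cells had Pparg at 9.12, 4.91, 12.8 and 27.1 CPM and held 25.7% to 45.9% of all its UMIs.

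**Figure D4:**
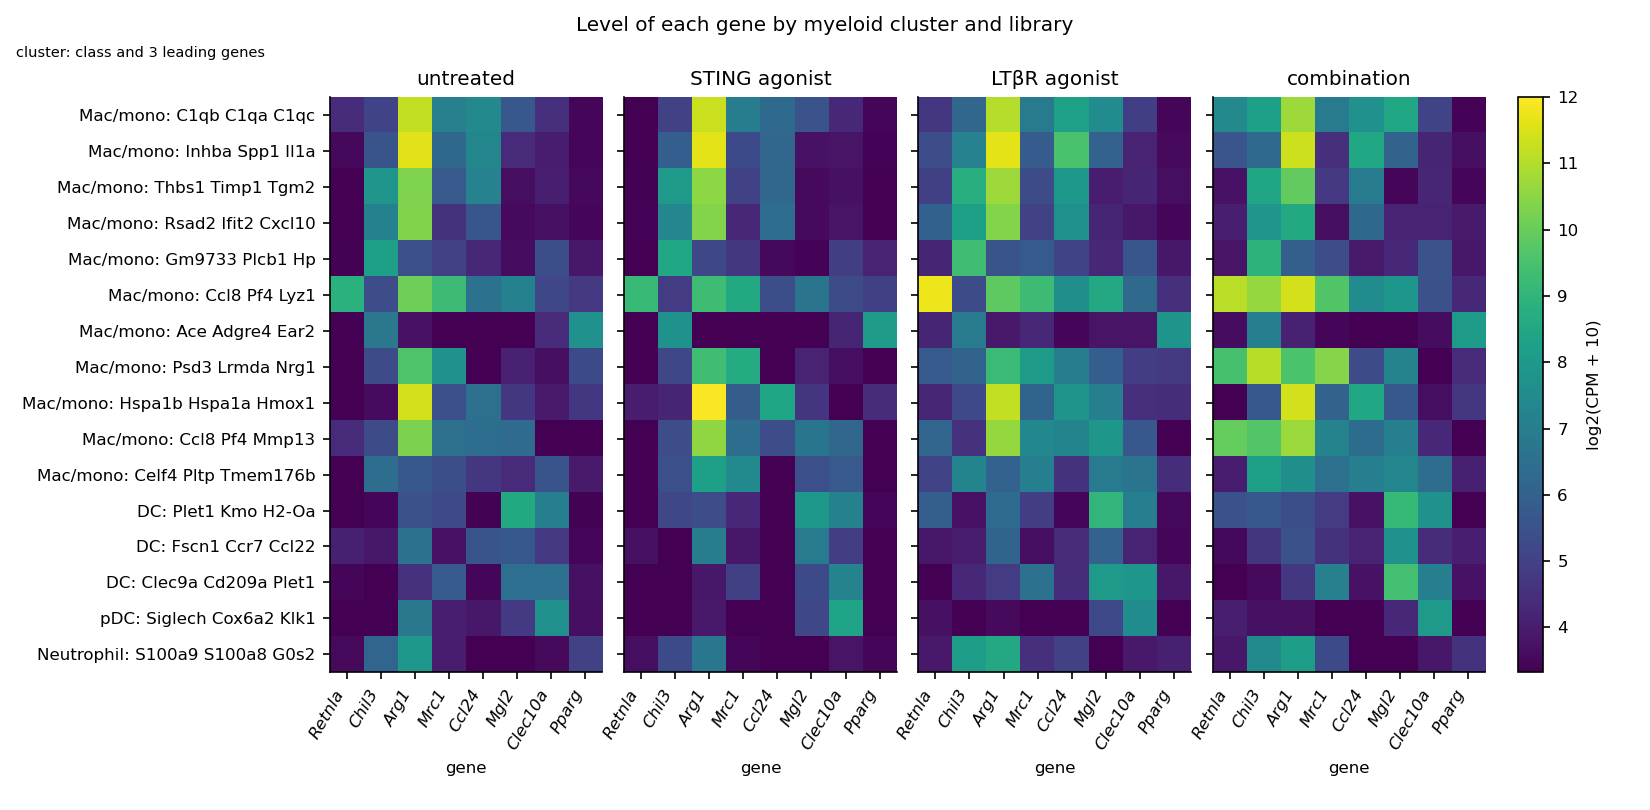
Level of each gene, as log2(CPM + 10) in colour, in the 16 myeloid clusters (rows, named by class and 3 leading genes) of each library (panels). The row led by Ccl8, Pf4 and Lyz1 is the brightest for Retnla in each panel, and the row led by Ace is the brightest for Pparg in each panel. The dendritic rows led by Siglech, Clec9a and Plet1 are the brightest for Clec10a, and the dendritic row led by Fscn1 is not among them.

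**Figure D5:**
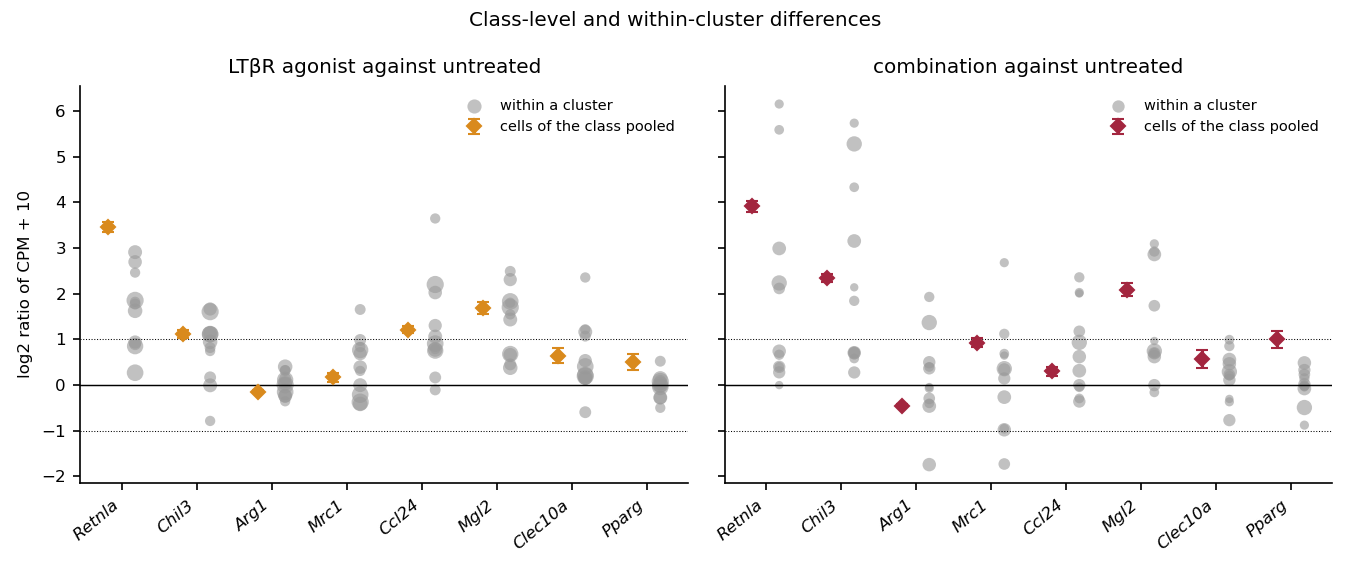
Log2 ratio of CPM + 10 to untreated for the LTβR agonist and the combination (y axis) of each gene (x axis). Diamonds are the cells of the macrophage or monocyte class pooled, with counting intervals, grey points are its 11 clusters with at least 20 cells in both libraries (larger for more cells, no interval drawn), and dotted lines mark 2-fold. For Pparg in the combination the diamond lies at 1.01 and the clusters scatter around a mean of -0.03, and for Arg1 the clusters run from -1.74 to 1.93 around a diamond at -0.45.

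Few cells held several of the 8 genes. With Arg1 left out because of its wide spread, at least 3 of the other 7 genes were found in 0.2% (6 of 3005), 0.0690% (1 of 1450), 0.636% (18 of 2828) and 2.49% (45 of 1804) of thinned cells, and exactly 2 in 1.86%, 1.17%, 4.95% and 5.27%. The combination had the largest share of cells with 3 or more, with an interval of 1.83% to 3.32% against 0.378% to 1.00% with the LTβR agonist. Both intervals count cells of 1 library each and hold no spread between animals. More than 65.7% of thinned cells in each library had none of the 7.

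Over 60 sums of a cluster and a library, the levels of Arg1 and Ccl24 on the log2 scale went together most closely among the 8 genes (Pearson r of 0.83), followed by Retnla and Mrc1 (0.66) and Mgl2 and Clec10a (0.56). Among 9764 genes, those most like Retnla were C4b (0.79), Mmp2 (0.78) and Fcrls (0.78), and those most like Mrc1 were Kcnk13 (0.85), Rab11fip5 (0.82) and C4b (0.81). For Chil3 they were Plod3 (0.74), Cisd2 (0.73) and Lyz2 (0.72), and for Arg1 Ecm1 (0.95), C3ar1 (0.94) and Spp1 (0.90). For Ccl24 they were Arg1 (0.83), Pdgfa (0.81) and Gm36172 (0.79). Mgl2 went with Colgalt1 (0.82), H2-Eb1 (0.78) and H2-DMb2 (0.78), the last 2 being class II antigen presentation genes, and Clec10a with Fh1 (0.85), Vars (0.82) and Cd7 (0.82). Pparg went with Cd300e, S1pr5 and Slc12a2 (0.86 each). The points share libraries, depth and cells, and the values are a description.

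Of the receptor and signalling genes of the IL-4 and IL-13 pathway, 8 of 11 could be tested in the macrophage or monocyte class and 0 were past 2-fold in any of the 3 comparisons with untreated. Il4ra, the receptor chain shared by both cytokines, was at 287, 279, 213 and 165 CPM with 78.3%, 77.4%, 66.6% and 56.8% of cells positive, a log2 ratio of -0.77 (-0.85 to -0.68) in the combination. Il13ra1 was at 152, 154, 136 and 120 CPM and Stat6 at 92.2, 98.8, 84.1 and 87.4 CPM. The receptor and its transcription factor were thus present in each library. Their class levels were not higher in either library with the LTβR agonist, where the Retnla level was higher. Their levels inside the Ccl8 Pf4 cluster or in Retnla positive cells were not measured. In the combination the remaining named genes had log2 ratios of 0.54 for Il2rg, 0.11 for Jak1, 0.11 for Tyk2, -0.51 for Jak3 and -0.33 for Il13ra1.

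The cytokines themselves were counted by class, without the mixed cells and the plasmacytoid dendritic-like cells. Among the classes counted, T-like cells held most of their UMIs, apart from Il4 in untreated. T-like cells held 45, 32, 789 and 431 UMIs of Il13, in 15, 15, 31 and 50 cells, and 15, 6, 83 and 115 UMIs of Il4. Both libraries with the LTβR agonist had more of them, in few cells. Mast- or basophil-like cells, 5 to 17 per library, held 0, 1, 12 and 2 UMIs of Il13 and 20, 3, 29 and 2 of Il4. In macrophage- or monocyte-like cells each had between 0 and 7 UMIs per library, in dendritic-like cells between 0 and 5, and in neutrophil-like cells 0.

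Other genes of the alternative state were divided. Of 19 tested, 0, 3 and 6 were past 2-fold higher and 0 lower in the STING agonist, LTβR agonist and combination libraries, with medians of 0.05, 0.11 and 0.27. Highest in the combination were the chemokine Ccl17, with 1.39, 2.5, 16.9 and 41.2 CPM and a log2 ratio of 2.17 (2.01 to 2.31), the ribonuclease Ear2 (1.28) and the chemokine Ccl8 (1.15). Lowest were Msr1 (-0.59), Trem2 (-0.57) and Tgm2 (-0.54), all within 2-fold. Ear2 and Ccl8 are leading genes of the Ace Adgre4 and Ccl8 Pf4 clusters, whose shares of the class were higher in that library.

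Regulators of the state gave 0 of 10 past 2-fold in each comparison on the scale of CPM + 10. The highest log2 ratios in the combination were 0.83 for Klf4, 0.58 for Irf4 and 0.41 for Nr1h3. The lowest were -0.31 for Ppard, -0.27 for Maf and 0.06 for Kdm6b. Irf4 was at 2.63 CPM in untreated, 7.2 CPM with the LTβR agonist and 8.83 CPM in the combination. The 10 CPM added shrinks ratios at such levels, so the count of 0 does not limit the change of Irf4 in CPM. Genes of arginine and polyamine metabolism gave 0 of 9. The arginine transporter Slc7a2 was highest at 0.88, then Odc1 (0.47) and Oat (0.38), and Arg2 (-0.56), Nos2 (-0.26) and Asl (-0.13) were lowest. Of 12 classical activation genes 0 were past 2-fold higher, and Ccl5 alone was past 2-fold lower, at -2.21 with the LTβR agonist and -1.17 in the combination. The next lowest there were Ptgs2 (-0.62) and Il1b (-0.52), and the highest were Cxcl9 (0.62), Inhba (0.27) and Il12b (0.25). Il12b was at 1.49 CPM in untreated and 3.7 CPM in the combination, so its ratio is shrunk in the same way. Of 11 relatives of the 8 genes, Ppard and Arg2 could be tested, and neither was past 2-fold.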

How the data were processed

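Live CD45+ leukocytes of 4 libraries were profiled by droplet 5′ sequencing. Per the submitters' processing notes, the authors used Cell Ranger 7.1.0 with mm10, and they deposited whole UMI counts per gene and barcode for 1 joint matrix. Whether reads in introns were counted is not given in the sources used here. The study's limits kept barcodes with 300 to 5000 genes and at most 6% mitochondrial UMIs. Cells were clustered (scanpy 1.11.5, leidenalg 0.10.2, resolution 1) without the 8 genes and without receptor and immunoglobulin segments. Clusters were named from fixed markers by thresholds set after the data were seen. Doublets were kept in the main values, and 816 cells of a mixed T and macrophage cluster and 44 of a mixed cluster with neutrophil genes stayed out of every class. Counts were summed per library and class or cluster and scaled to CPM, with exact Poisson intervals, and log2 ratios used CPM + 10. Shares of cells carry exact Clopper-Pearson intervals. Each interval has a 95% level and covers counting error only. With 1 library per group no test was possible, so no p-value is given. The genes tested had at least 50 UMIs in 1 of the 2 libraries compared. Past 2-fold means a log2 ratio of at least 1 in size. Thinning drew 1000 UMIs from each cell. All 8 genes are named. From each fixed list the 3 highest and 3 lowest log2 ratios of the combination are named, and for each gene the 3 others most like it. The genes and lists were chosen with earlier results of these data known. The contrast code was tested on simulated data. A further allele of the tumour line is not reported here.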

Additional observations from a re-analysis of the deposited data

Results flagged for a closer look

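For 3 values the STING agonist went with a difference in opposite directions without and with the LTβR agonist, each beyond counting error. For Arg1 in macrophage- or monocyte-like cells the log2 ratio of CPM + 10 was 0.10 (0.07 to 0.13) for the STING agonist against untreated and -0.31 (-0.34 to -0.27) for the combination against the LTβR agonist. For Mrc1 in the same cells it was -0.18 (-0.30 to -0.06) and 0.76 (0.66 to 0.86). For Mgl2 in dendritic-like cells it was -0.44 (-0.65 to -0.25) and 0.53 (0.37 to 0.68). With 1 library per group the differences between the 2 settings were not tested. The class values also follow the makeup of the class. With equal weight over clusters, Arg1 with the STING agonist against untreated was -0.06. Without the Ccl8 Pf4 cluster, Mrc1 in the combination against untreated was 0.00 in place of 0.93.

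Retnla was also found in barcodes outside the quality limits, which entered only the alternative without those limits. In the combination 24 of 444 such barcodes held it, 5.41% (3.49 to 7.94), against 3 of 369 (0.813%, 0.168 to 2.36) in untreated, 1 of 174 (0.575%) with the STING agonist and 22 of 623 (3.53%, 2.23 to 5.30) with the LTβR agonist.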

How the results depend on the processing

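In the macrophage or monocyte class, each log2 ratio to untreated was recomputed under alternatives for the pseudocount, the scaling, the quality limits, doublets, the clustering, the weight of clusters and the top cells, and each share of positive cells at equal depth. Ratios in other classes, within clusters and between treated libraries were not recomputed. The alternatives with clusters weighted as in untreated and without the Ccl8 Pf4 cluster were chosen after seeing the data. Of 312 alternative log2 ratios 208 stayed within counting error, 103 moved and 1 gave a value past 2-fold the other sign. Pparg in the combination was 1.01, and -0.028 with equal weight over clusters. Most of those clusters held Pparg below the 10 CPM added, which keeps their ratios near 0. The count past 2-fold with the STING agonist was 0, and 1 without the 10 top cells per gene, where Ccl24 was at -1.19. With cells holding 2 markers of another class left out Ccl24 was at -0.13 there, against -0.78. The counts with the LTβR agonist and in the combination ran from 3 to 5. Retnla and Mgl2 stayed past 2-fold in all 13 alternatives of both libraries and Chil3 in 13 of the combination. With the LTβR agonist Chil3 and Ccl24 stayed past it in 11 of 13, and in the combination Pparg did in 6 and Mrc1 passed it in 3. Retnla with the LTβR agonist ran from 1.09 to 3.98. No paired analysis was possible because each group had 1 library and no result comes from a test, and for the same reason no replicate could be left out. Genes with few UMIs, Pparg and Clec10a above all, are limited by depth.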
